A study of Mus musculus with 28 samples.

Results

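The Slc25 carriers are the nuclear-encoded transport proteins that move metabolites across the mitochondrial inner membrane, and their transcripts were followed here across the mouse liver lobule and across single liver cells. Members were the genes whose symbol in the table of paired cells is Slc25a followed by a number, with at least 1 UMI (unique molecular identifier, the tag that marks 1 captured mRNA molecule). Of 44 such rows 42 had a UMI, among 18945 genes with a UMI, and Slc25a18 and Slc25a31 had none. The rule reads the symbol only.

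Cells came from C57BL/6 male mice kept on a reversed light cycle and fasted for 2 h before collagenase perfusion of the liver. The paired cells were hepatocytes sorted together with 1 attached CD31+ cell, an endothelial surface marker, from 3 mice aged 6 or 7 weeks (17 libraries). The single cells were sorted non-parenchymal cells from 2 other mice, aged 3 and 4 months (11 libraries). Both were sequenced by MARS-seq, which counts the 3' ends of mRNA. No genotype or drug was compared, and all groups share the ketamine and xylazine anaesthesia, the fast and the dissociation.

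Each carrier of the family is specific for a few substrates: some exchange amino acids or dicarboxylates, some nucleotides, phosphate or cofactors, and a few carry acylcarnitine, iron or glutathione. In hepatocytes they link the cytosolic and mitochondrial steps of the urea cycle, gluconeogenesis, fatty acid oxidation, and heme synthesis. Hepatocytes near the central vein (pericentral) and near the portal vein (periportal) are known to divide many of these tasks between them. Slc25a17 is an exception in place, being a peroxisomal carrier, and Slc25a46 sits in the outer mitochondrial membrane.

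Promoters are shown for 4 members because the results turn on them: the 2 members of highest level in the pairs, and 2 whose level was higher in the pericentral zone. Each is the 250 bases before the RefSeq gene start in GRCm38.p6, 5' to 3' on the gene's strand. Capitals mark GGGCGG, the GC box, on either strand.
Slc25a47, chr12:108850879-108851128 (+ strand): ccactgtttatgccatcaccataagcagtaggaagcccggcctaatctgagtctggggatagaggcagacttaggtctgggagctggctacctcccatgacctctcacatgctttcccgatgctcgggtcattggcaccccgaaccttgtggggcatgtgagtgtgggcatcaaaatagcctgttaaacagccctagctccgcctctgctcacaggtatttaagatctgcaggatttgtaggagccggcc
Slc25a39, chr11:102407518-102407767 (- strand): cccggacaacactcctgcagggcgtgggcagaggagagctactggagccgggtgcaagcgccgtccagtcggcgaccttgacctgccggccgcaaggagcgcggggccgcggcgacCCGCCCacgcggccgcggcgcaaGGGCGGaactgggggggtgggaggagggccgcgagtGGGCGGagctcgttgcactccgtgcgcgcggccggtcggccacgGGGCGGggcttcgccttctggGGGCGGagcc
Slc25a45, chr19:5877572-5877821 (+ strand): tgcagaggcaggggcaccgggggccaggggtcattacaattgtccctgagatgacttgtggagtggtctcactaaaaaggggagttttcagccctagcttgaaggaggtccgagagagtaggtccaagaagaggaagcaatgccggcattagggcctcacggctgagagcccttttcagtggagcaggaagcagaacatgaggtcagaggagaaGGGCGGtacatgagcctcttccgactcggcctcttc
Slc25a10, chr11:120491587-120491836 (+ strand): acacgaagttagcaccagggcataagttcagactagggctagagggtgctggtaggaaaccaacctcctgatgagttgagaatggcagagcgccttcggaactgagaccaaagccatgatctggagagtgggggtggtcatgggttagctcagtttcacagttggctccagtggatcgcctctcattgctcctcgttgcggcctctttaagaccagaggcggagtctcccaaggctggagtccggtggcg
The promoter of Slc25a39 held 35 CpG dinucleotides and 5 GC boxes, the nearest starting 10 bases before the gene start. The promoters of Slc25a47, Slc25a45 and Slc25a10 held 6, 7 and 9 CpG, with 1 GC box in Slc25a45 and none in the others. TATAAA, the core of a TATA box, and CTTTGA, the core of TCF/LEF sites, were searched on both strands as well and were in none of the 4 windows. Over the 26 members with a single RefSeq entry, of 32 with any, the median was 15 CpG, against 6 over all 32851 promoters of the table. The GC box was in 18 of the 26 members (69.2%) and in 32.7% of all promoters. CTTTGA was in 4 members (15.4%) against 13.8%, and TATAAA in none against 12.4%. The 32851 promoters were limited neither to genes with a UMI in the pairs nor to genes with a single entry, as the 26 were. The 2 sets therefore differ in more than the family. A match of letters is a description of the window and not a binding site.

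In the 4621 pairs the members held 222099 of 56976156 gene UMIs (0.390%), with a median of 40 member UMIs in a pair of median 10450 UMIs. Hepatocyte markers summed to 137555 UMIs per 1000000 gene UMIs and all 20 endothelial markers were found, at 1080 in sum, so both labelled cell types were present. RNA of the hepatocyte and of its neighbour in a well cannot be told apart, nor can fewer cells of a type and less RNA per cell. Wells carry no mouse or library, so the table is 1 sample. Levels are UMIs per 1000000 gene UMIs (UPM), which for 3' counting need no correction for transcript length. Their 95% intervals (exact Poisson for levels, exact conditional binomial for ratios) cover counting error only and say nothing of the spread between mice. No test between conditions was possible. As a check on uneven sampling, values are also given within 17 plate-sized blocks of consecutive well numbers, which are not known to be libraries.

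Slc25a47 was the member of highest level in the pairs, at 495 UPM (interval 489 to 501). It is an orphan carrier known for its expression in liver. Slc25a39, a glutathione carrier, followed at 438, then the ADP/ATP carrier Slc25a5 at 342 and the phosphate carrier Slc25a3 at 334. The citrate carrier Slc25a1 (307), the calcium-regulated ATP-magnesium/phosphate carrier Slc25a23 (282), the aspartate-glutamate carrier Slc25a13, or citrin (278), and the ornithine carrier Slc25a15 (265) completed the 8 highest. Together the 8 held 70.3% of member UMIs. Of the 42 members 11 reached 100 UPM, 17 lay from 10 to 100, and 14 were lower. Slc25a5 has processed pseudogene copies, and how reads shared with them were assigned is not given in the sources used here, so its level is uncertain.

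These levels were not even over the blocks. Over the 16 blocks with at least 50 pairs, Slc25a47 ran from 236 to 618 UPM, Slc25a23 from 147 to 462 and Slc25a20 from 95.6 to 168. The blocks also differed in the median position of their pairs, from a score of 0.338 to 0.641. A pooled zone therefore takes unequal numbers of pairs from each block, and the within-block ratios stand beside the pooled ones for that reason.

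Pairs were placed along the lobule by a score of 25 hepatocyte landmark genes, none of them a carrier, and cut into 3 zones (1541 pericentral, 1540 middle and 1540 periportal pairs) and into 6 layers, layer 1 being pericentral. Member UMIs were 0.403% of gene UMIs in pericentral, 0.389% in middle and 0.377% in periportal pairs, whose median depths were 10911, 10322.5 and 10028 UMIs. Of the 42 members 32 had at least 100 UMIs over both outer zones, 10 had fewer. By a rule of size, a fold of at least 1.5, 6 of the 32 members (18.75%) were higher pericentrally and 0 periportally. Among all 9539 genes at the same minimum 7.61% passed that fold toward the pericentral and 3.29% toward the periportal zone. The median log2 ratio of pericentral over periportal was 0.19 over the members and 0.12 over all genes, with 23 of 32 members (71.9%) and 68.6% of all genes above 0. Set against the all-gene median, 5 members (15.6%, all genes 5.08%) passed toward the pericentral zone and 0 (all genes 4.69%) toward the periportal one.

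**Figure D1:**
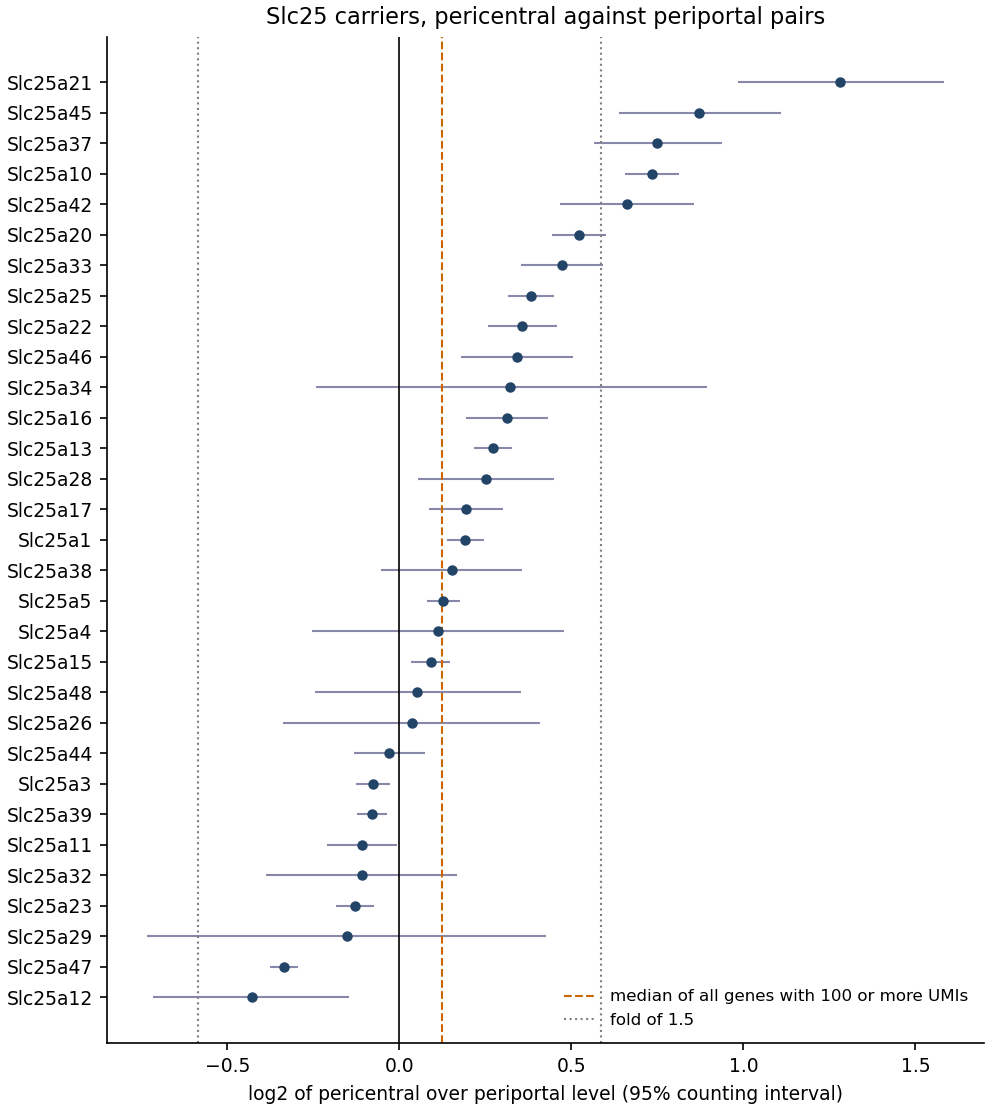
Horizontal axis, log2 of the pericentral over the periportal level of 31 of the 32 members with at least 100 UMIs, with bars for the 95% counting interval; vertical axis, members ordered by that ratio. The 5 plotted members from Slc25a21 to Slc25a42 lie beyond the dotted line of a 1.5-fold difference, and none lies beyond the dotted line on the periportal side.

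Among carriers of amino acids, dicarboxylates and citrate, 13 of 15 rows were measured, 3 passed the fold toward the pericentral zone, and their median log2 ratio was 0.15. Slc25a21, which carries oxodicarboxylates of lysine and tryptophan breakdown, had the steepest gradient of the family. Its level in layers 1 to 6 was 19.1, 15.05, 12.7, 9.38, 8.64 and 5.50 UPM, falling at each step. It had 334 pericentral and 131 periportal UMIs (log2 ratio 1.28, interval 0.98 to 1.58), a 2.43-fold difference, and leaned the same way in 14 of 16 blocks with at least 10 UMIs.

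Slc25a45, placed with the amino acid carriers by similarity, went from 23.4, 21.7, 18.6, 14.8, 12.6 and 12.1 UPM in the 6 layers, again lower at each step (log2 ratio 0.87, interval 0.64 to 1.11, 14 of 16 blocks). Slc25a10, the dicarboxylate carrier that exchanges malate or succinate for phosphate, was the most abundant member past the fold. Its layers read 202, 162, 135, 127, 107 and 113 UPM, so that most of its difference lay within the first 3 layers (3569 pericentral and 2044 periportal UMIs, log2 ratio 0.73, interval 0.66 to 0.81). It leaned the same way in 15 of 16 blocks, and the ratio with zones drawn within blocks was 0.63.

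The 2 aspartate-glutamate carriers, which serve the malate-aspartate shuttle, leaned in opposite directions. Slc25a13 went from 312, 291, 285, 275, 253 and 248 UPM (log2 ratio 0.27, interval 0.22 to 0.33, 16 of 17 blocks). Slc25a12, or aralar, was much scarcer in the pairs and read 9.98, 8.84, 10.8, 10.9, 12.6 and 12.8 UPM (184 pericentral and 236 periportal UMIs, log2 ratio -0.43, interval -0.72 to -0.15, 10 of 16 blocks). Neither passed a fold of 1.5. The oxoglutarate-malate carrier Slc25a11, the shuttle's other carrier, had 79.4 UPM pericentral and 85.6 periportal (log2 ratio -0.11, interval -0.21 to -0.01, 9 of 17 blocks).

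Among the remaining members of this group, the abundant Slc25a1 and Slc25a15 were nearly level. The citrate carrier Slc25a1 read 318, 329, 311, 317, 286 and 280.0 UPM (log2 ratio 0.19, interval 0.14 to 0.24), and the ornithine carrier Slc25a15 of the urea cycle 276, 272, 261, 265, 259 and 256 (log2 ratio 0.09, interval 0.03 to 0.15). Slc25a15 lay below the all-gene median, by a log2 of -0.03, and within blocks its ratio was -0.02. The glutamate carrier Slc25a22 leaned to the pericentral side, at 108 in layer 1 and between 73.4 and 85.97 in the other 5 layers (log2 ratio 0.36, interval 0.26 to 0.46, 14 of 16 blocks). The branched-chain amino acid carrier Slc25a44 (-0.03), the glycine carrier Slc25a38 (0.15) and Slc25a48 (0.05) had intervals that held 0. Slc25a29, a carrier of basic amino acids, had 105 UMIs over both outer zones and the only middle peak by the rule used, 3.95 UPM in layer 3, against 2.30 in layer 1 and 2.86 in layer 6. Its log2 ratio had an interval of -0.73 to 0.43, so a gradient was not detectable at this depth.

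**Figure D2:**
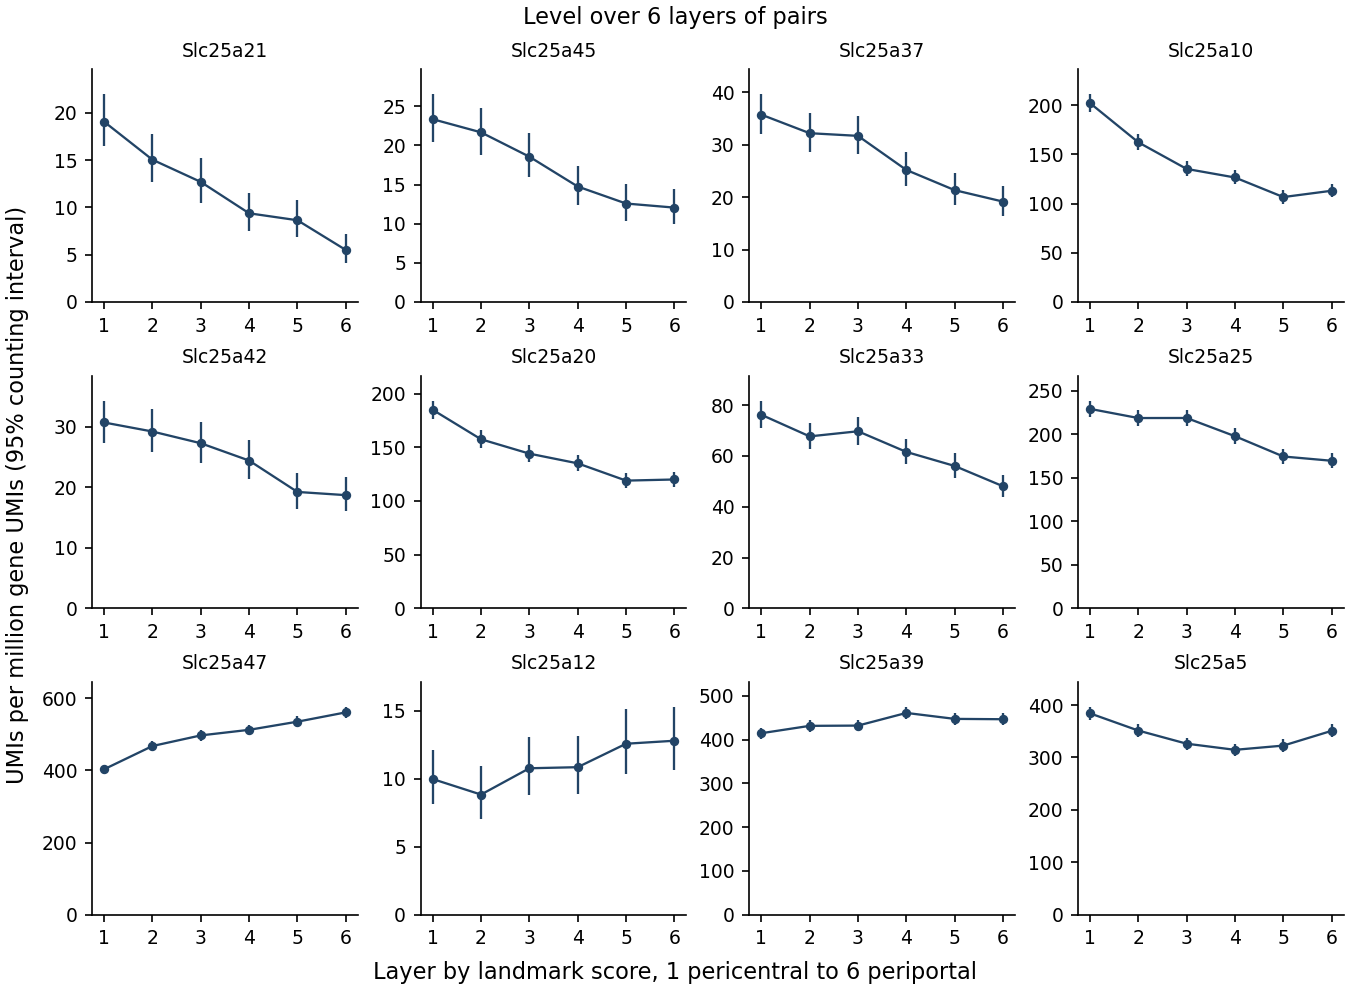
Horizontal axis, layer 1 (pericentral) to layer 6 (periportal); vertical axis, UMIs per 1000000 gene UMIs from 0, with 95% counting intervals, for 12 members each on its own scale. Slc25a21 goes from 19.1 to 5.50, Slc25a47 runs the other way from 403 to 561, and Slc25a39 stays between 414 and 461.

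Among carriers of nucleotides, phosphate and cofactors, 12 of 16 rows were measured and 2 passed the fold toward the pericentral zone (median log2 ratio 0.16). Slc25a42, which brings coenzyme A into mitochondria, read 30.7, 29.3, 27.3, 24.4, 19.3 and 18.7 UPM, lower at each step (log2 ratio 0.66, interval 0.47 to 0.86, 16 of 16 blocks). It lay just inside the fold of 1.5, and set against the all-gene median its ratio of 0.54 no longer passed.

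Slc25a33, a pyrimidine nucleotide carrier, fell just short of the fold in the pooled zones, with layers of 76.2, 67.7, 69.7, 61.5, 56.01 and 48.03 UPM (log2 ratio 0.47, interval 0.35 to 0.59). It leaned the same way in 16 of 16 blocks, and its within-block ratio was higher, 0.68. Slc25a16, linked to coenzyme A, was lower at each step from 69.6 to 52.6 UPM (log2 ratio 0.31, interval 0.19 to 0.43), and the peroxisomal Slc25a17 read 87.7 in layer 1 and 67.7 in layer 6 (log2 ratio 0.19, interval 0.08 to 0.30).

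The high-level carriers of energy metabolism differed little along the lobule. The phosphate carrier Slc25a3 read 327, 325, 328, 337, 336 and 352 UPM (log2 ratio -0.08, interval -0.13 to -0.03, 9 of 17 blocks). The ADP/ATP carrier Slc25a5 was lowest in the middle, reading 384, 351, 326, 315, 323 and 351 (log2 ratio 0.13, interval 0.08 to 0.18, 10 of 17 blocks). Its scarce relative Slc25a4 had 6.90 UPM and an interval on both sides of 0 (-0.25 to 0.48). Of the ATP-magnesium/phosphate carriers, Slc25a23 read 247, 285, 286, 294, 286 and 296 (log2 ratio -0.13, interval -0.19 to -0.07, 10 of 17 blocks). Slc25a25 leaned the other way, from 229 to 169 UPM (log2 ratio 0.38, interval 0.32 to 0.45), but within blocks its ratio was 0.17. The folate and FAD carrier Slc25a32 (log2 ratio -0.11, interval -0.39 to 0.17, 8 of 15 blocks) and the S-adenosylmethionine carrier Slc25a26 (log2 ratio 0.04, interval -0.34 to 0.41) were not separable from an even level at this depth.

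Of the carriers of acylcarnitine, iron and glutathione, 4 of 5 were measured and 1 passed the fold toward the pericentral zone (median log2 ratio 0.39). Slc25a20, the carnitine-acylcarnitine carrier that admits long-chain fatty acids for oxidation, lay just outside the fold, with layers of 185, 157, 144, 135, 119 and 120.0 UPM (3348 pericentral and 2221 periportal UMIs, log2 ratio 0.52, interval 0.44 to 0.60). It leaned the same way in 16 of 16 blocks. The mitochondrial iron importer Slc25a37, or mitoferrin-1, read 35.7, 32.2, 31.7, 25.2, 21.3 and 19.1 UPM, lower at each step (664 pericentral and 376 periportal UMIs, log2 ratio 0.75, interval 0.57 to 0.94, 16 of 16 blocks). Its relative Slc25a28, or mitoferrin-2, went from 25.6 in layer 1 to 21.4 in layer 6 (log2 ratio 0.25, interval 0.05 to 0.45, 10 of 16 blocks). Slc25a39 read 414, 431, 432, 461, 447 and 446 UPM (log2 ratio -0.08, interval -0.12 to -0.04), and only 6 of 17 blocks shared that pooled direction, with a within-block ratio of -0.00. Slc25a40, the other glutathione carrier, had 73 UMIs over both outer zones, under the minimum.

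Of the uncoupling-type and orphan carriers 3 of 8 with a UMI were measured and none passed the fold. Slc25a47 was the clearest member on the periportal side, with layers of 403, 468, 497, 513, 535 and 561 UPM, higher at each step. It had 8486 pericentral and 10199 periportal UMIs (log2 ratio -0.34, interval -0.38 to -0.29), and 16 of 17 blocks leaned that way. The difference was 1.26-fold, short of 1.5, but on the largest count of the family. Slc25a46, which acts in mitochondrial fusion and fission, leaned the other way (log2 ratio 0.34, interval 0.18 to 0.50, 14 of 16 blocks). Slc25a34 had 111 UMIs over both outer zones, and its interval ran from -0.24 to 0.89.

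Over the 32 measured members 19 (59.4%) had their highest level in layer 1 and 5 (15.6%) in layer 6, against 39.4% and 11.2% of all genes at the same minimum. Layer 1 also had the deepest pairs, with a median of 11509 UMIs, and the part of depth in these counts was not tested beyond the thinned pairs of the closing section. Slc25a13, Slc25a16, Slc25a21, Slc25a37, Slc25a42 and Slc25a45 were lower at each of the 5 steps, and Slc25a47 alone was higher at each (18.75% and 3.12% of members, all genes 8.41% and 2.26%). The range over layers was under 1.5-fold for 22 members and 2-fold or more for 3 (among them Slc25a21 and Slc25a34, named after their values were seen), shares of 68.75% and 9.38% that lie next to the 68.8% and 9.18% of all genes. Counting intervals of the log2 ratio lay wholly above 0 for 18 members, below 0 for 6, and held 0 for 8. Intervals above and below 0 were found for 37.1% and 11.4% of all genes, and they narrow with a gene's UMIs. Endothelial markers summed to 958 UPM in pericentral pairs and 1134 in periportal pairs, and the 10 Kupffer cell markers to 58.8 and 82.3. Their part in the members' ratios was not tested beyond the endothelial shares given further on.

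Genes that work with the carriers were summarised from 8 lists, without the landmark genes. Among all 9539 genes with at least 100 UMIs, 68.6% had a ratio above 0, with a median of 0.12. The fold was passed by 7.61% toward the pericentral and 3.29% toward the periportal zone. All 12 measured genes of the carnitine route and fatty acid oxidation had a log2 ratio above 0 (median 0.27), the same side as Slc25a20. Carnitine acetyltransferase Crat was the highest (25.6 against 16.7 UPM, log2 ratio 0.61) and the 1 gene of the list past the fold, followed by the peroxisomal enzyme Ehhadh (0.44). No gene of this list had a ratio below 0. The lowest ratios were those of Cpt1a (0.09), which lay under the all-gene median of 0.12, and Hadha (0.14).

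Of 14 measured genes for iron, heme and glutathione 13 were above 0 and 4 passed the fold toward the pericentral zone (median 0.32). The largest ratios belonged to heme synthesis, Alas1, its first enzyme (662 against 286 UPM, log2 ratio 1.21), and Alad, the next (249.6 against 119.6 UPM, log2 ratio 1.06). Glutathione synthetase Gss was the only one below 0 (-0.30), and Gclc was the next lowest (0.06).

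The citrate route was split. Of 9 measured genes 2 passed the fold in each direction (median -0.17). Citrate synthase Cs (113 against 65.5 UPM, log2 ratio 0.79) and malic enzyme Me1 (0.59) were higher pericentrally. ATP citrate lyase Acly, which cleaves the citrate that Slc25a1 exports (66.7 against 184 UPM, log2 ratio -1.46), and Acaca, which makes malonyl-CoA (-0.67), were higher periportally. Slc25a1 itself stood between them at 0.19.

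Of 7 measured malate-aspartate and urea cycle genes 1 passed the fold, the cytosolic aspartate aminotransferase Got1 on the periportal side (172 against 286 UPM, log2 ratio -0.73). Ornithine transcarbamylase Otc was at -0.38, and Glud1 (0.25) and Nags (0.15) were the highest. The other 6 genes of this list set the score and were not compared. The mitochondrial partner Got2 had a ratio of 0.10.

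Among 12 other mitochondrial transporters the serine transporter Sfxn1 had a ratio of -3.24 (751 pericentral and 6781 periportal UMIs), larger in size than that of any Slc25 member. Tspo was the 1 gene of this list past the fold on the pericentral side (0.62), followed by the calcium uniporter Ccdc109a, also named Mcu (0.42), and Vdac2 was the next lowest after Sfxn1 (-0.20). No gene of the 10 that import carrier proteins (median 0.25) or of the 15 measured for ATP synthase (median -0.01) passed the fold. Their extremes were Timm8a1 (0.58), Timm22 (0.43), Timm10 (-0.10) and Tomm20 (-0.04) for import. For ATP synthase they were Atp5k (0.21) and the inhibitor Atpif1 (0.43) on one side, and Atp5g1 (-0.43) and Atp5o (-0.14) on the other. These lists were chosen with earlier results known, and their medians are descriptions.

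**Figure D3:**
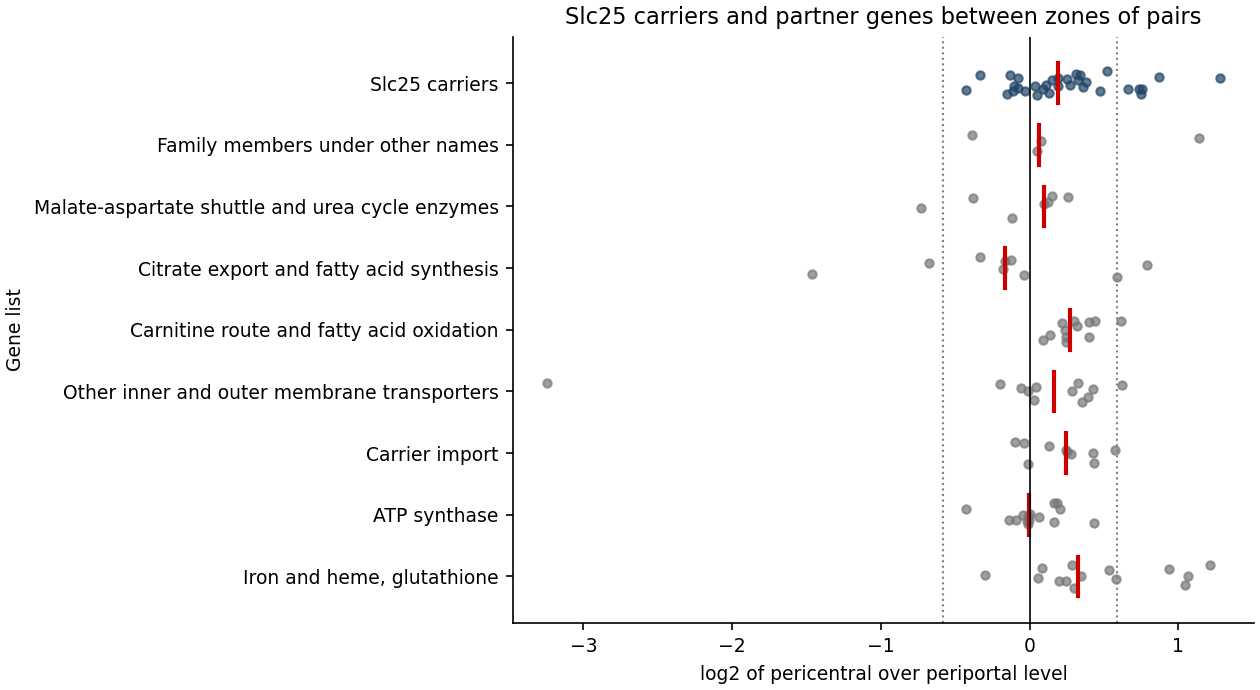
Horizontal axis, log2 of the pericentral over the periportal level; each point is 1 gene with at least 100 UMIs, placed by list on the vertical axis, and red marks are list medians. The carnitine and fatty acid oxidation genes all lie above 0 (median 0.27), the ATP synthase genes centre at -0.01, and Sfxn1 stands alone at -3.24.

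In the single cells 2692 of 3720 wells had at least 300 UMIs, with a median of 710 UMIs, far below the depth of a pair. They fell into 10 clusters, clustered without the Slc25 genes, 9 of them named from cell type markers. The classes were 865 endothelial-like, 697 T cell-like, 286 Kupffer-like, 276 B cell-like, 225 NK-like, 153 conventional dendritic-like, 110 plasmacytoid dendritic-like, 31 hepatocyte-like and 31 neutrophil-like cells, and 18 cells stayed unnamed. The conventional dendritic-like cluster had 7 markers of its own list at least 2-fold higher than the other cells. It also had 6 monocyte or macrophage markers and 5 cell division markers that much higher. The part of such cells, or of division, in its levels was not tested. No well name was shared between the 2 tables. All members together had 4611 UMIs in these cells, so that 23 members with at least 50 UMIs are described.

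The summed level of the family was 1584 UPM (interval 1484 to 1688) in endothelial-like cells and 2412 (2224 to 2612) in conventional dendritic-like cells. The other 5 large classes lay between, from 1697 in B cell-like to 1948 in T cell-like cells, with intervals that overlap their neighbours in this order. The 31 hepatocyte-like cells had 3431 (2748 to 4232), and the pairs 3898. Tables, mice and ages differ between pairs and single cells, and these differences cannot be told apart from cell type. Hepatocyte transcripts were also found in the other classes: over 2661 cells outside the hepatocyte-like cluster, hepatocyte markers stood at a median of 6.49% of their level in the pairs (range over markers 4.91 to 9.06%).

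Against that background, 9 of the 23 members (39.1%) were at least 2-fold higher in the pairs, 9 within 2-fold and 5 (21.7%) at least 2-fold higher in the non-parenchymal cells. Of all 7747 genes at the same minimum 7.72% were 2-fold higher in the pairs, 28.3% within 2-fold and 64% 2-fold higher in the non-parenchymal cells. The minimum of 50 UMIs was set in the single cells alone, so a member scarce in pairs, such as Slc25a24 with 46 pair UMIs, entered through the side where it was high, and abundant pair members such as Slc25a10, Slc25a13 and Slc25a16 fell outside. The counts are therefore descriptions of the 23. The first group held the carriers of the urea cycle, citrate export and fatty acid entry. Slc25a23 was 10.4-fold, Slc25a15 9.11-fold, Slc25a47 8.27-fold, Slc25a25 7.46-fold and Slc25a1 7.07-fold higher in the pairs. Slc25a20 (4.88-fold), Slc25a39 (4.86-fold), Slc25a22 (2.93-fold) and Slc25a44 (2.71-fold) followed. Slc25a13 and Slc25a21, with 38 and 1 UMIs in these cells, stood at 5.61% (interval 3.97 to 7.70) and 3.47% (0.0877 to 19.4) of their pair level. The first value lay within the range of the hepatocyte markers, and the single UMI of the second could not place it. Slc25a34 had 0 UMIs of 2439561, which allows up to 1.23 UPM by the limit of 3 counts, against 2.90 in the pairs.

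Members within 2-fold were led by the phosphate carrier Slc25a3 (429.6 in non-parenchymal cells, 334 in pairs), the ADP/ATP carrier Slc25a5 (352 and 342) and Slc25a11 (85.3 and 80.5). The 5 members higher in non-parenchymal cells were Slc25a24 (37.7 against 0.807 UPM, 46.7-fold), Slc25a36 (25.8-fold), Slc25a4 (130.4 against 6.90, 18.9-fold), Slc25a12 (4.53-fold) and Slc25a28 (2.07-fold). Each of these has a close relative within the family, and those relatives are set side by side further on.

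**Figure D4:**
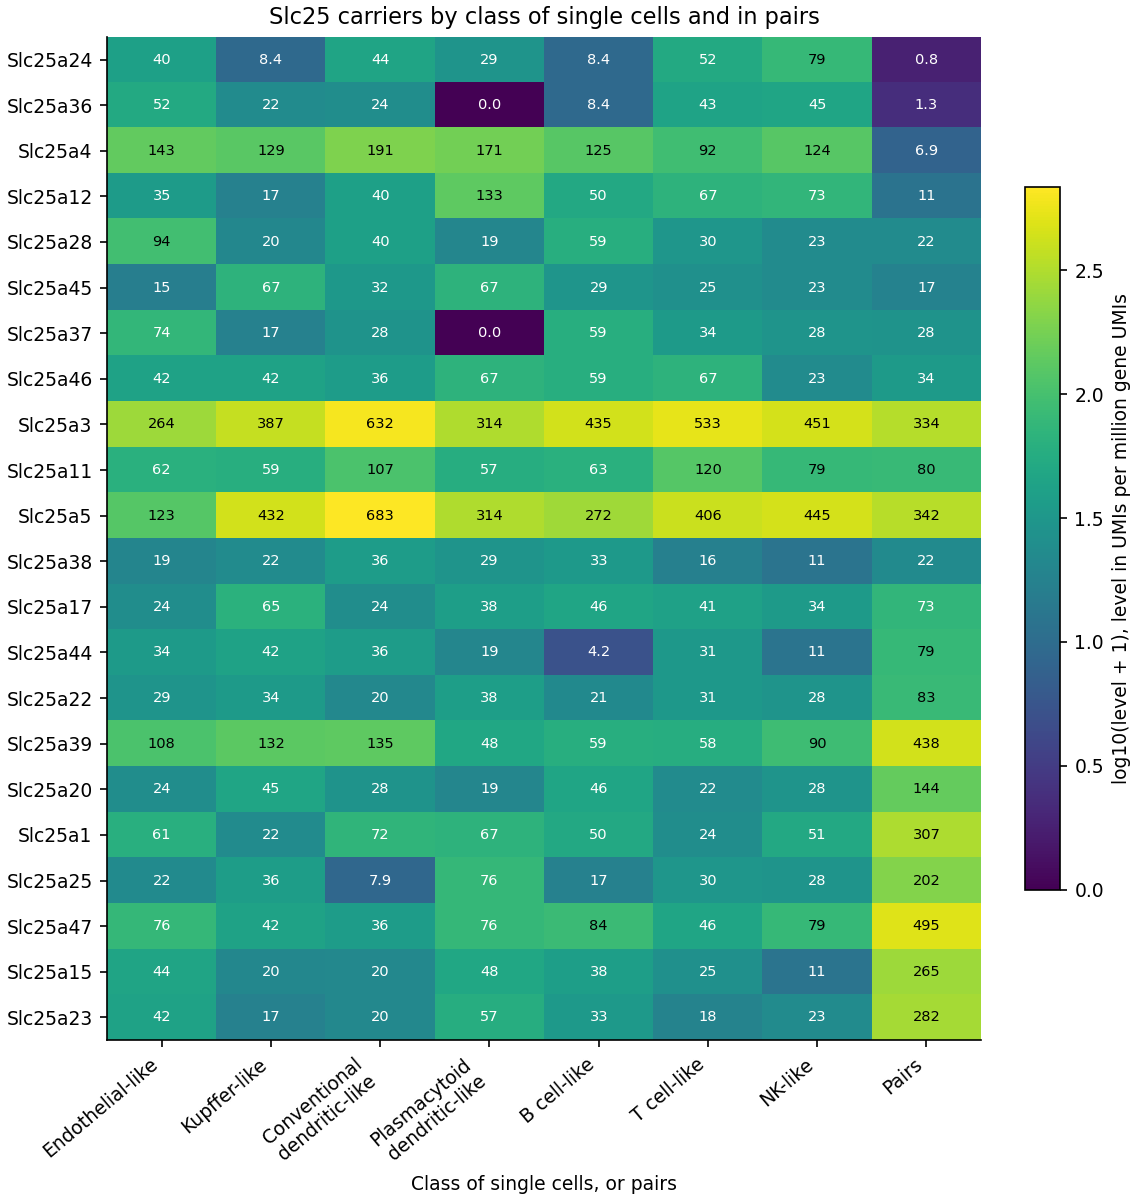
Rows, 22 of the 23 members with at least 50 UMIs in single cells, ordered by their level in non-parenchymal cells over that in pairs; columns, 7 classes of single cells and the pairs; colour and printed number, level in UMIs per 1000000 gene UMIs (colour on a log10 scale). Slc25a24 at the top reads 40.4 in endothelial-like cells and 0.807 in pairs, and Slc25a23 at the bottom 42.1 and 282.

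Shares within 7 sets of 2 related carriers, chosen with earlier results known, were set side by side. Of the UMIs of the 2 aspartate-glutamate carriers, Slc25a12 made up 3.79% (3.51 to 4.10) in the pairs (exact binomial 95% interval in parentheses here and next). It made up 70.00% (50.6 to 85.3) in endothelial-like and 83.3% (70.7 to 92.1) in T cell-like cells. The rest was Slc25a13. The lowest share of the 7 large classes was that of Kupffer-like cells, 46.2% (19.2 to 74.9), on 13 UMIs of both genes. Of the 2 ADP/ATP carriers, Slc25a4 made up 1.98% (1.79 to 2.18) in the pairs, 53.8% (45.7 to 61.8) in endothelial-like cells and 18.5% (14.4 to 23.02) in T cell-like cells. The endothelial-like share was the highest of the 7 large classes, the next being 35.3% (22.4 to 49.9) in plasmacytoid dendritic-like cells.

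Of the ATP-magnesium/phosphate carriers Slc25a24 and Slc25a23, the first made up 0.286% (0.209 to 0.381) in pairs, 48.98% (34.4 to 63.7) in endothelial-like cells and 74.5% (59.7 to 86.1) in T cell-like cells. Its share read 33.3% (7.49 to 70.1) in Kupffer-like and in plasmacytoid dendritic-like cells, on 9 UMIs of both genes in each. B cell-like cells had 2 of 10 UMIs (interval of the share 2.52 to 55.6%). These intervals overlap that of endothelial-like cells. Set against Slc25a25 instead, Slc25a24 made up 0.399% in pairs and from 18.75% in Kupffer-like to 84.6% in conventional dendritic-like cells. Of the pyrimidine nucleotide carriers Slc25a36 and Slc25a33, the first made up 2.06% (1.63 to 2.57), 77.5% (61.5 to 89.2) and 69.05% (52.9 to 82.4) in the same order. In Kupffer-like cells Slc25a36 made up 33.3% (15.6 to 55.3), and plasmacytoid dendritic-like cells had 1 UMI of both genes. Slc25a40 was the smaller part of the glutathione carriers in every large class, with 0.454% of their UMIs in pairs, 5.88% (1.63 to 14.4) in endothelial-like and 15.2% (6.34 to 28.9) in T cell-like cells, and no UMI of Slc25a40 in Kupffer-like, B cell-like, NK-like and conventional dendritic-like cells. The mitoferrins were near even in both tables: Slc25a28 made up 44.7% (42.9 to 46.6) of their UMIs in pairs, 56.00% (45.7 to 65.9) in endothelial-like cells and 46.5% (31.2 to 62.3) in T cell-like cells. RNA from hepatocytes in these wells adds UMIs of the relatives that prevail in the pairs. These are Slc25a5, Slc25a13, Slc25a23, Slc25a25, Slc25a33 and Slc25a39. The part of that RNA in the shares was not tested.

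**Figure D5:**
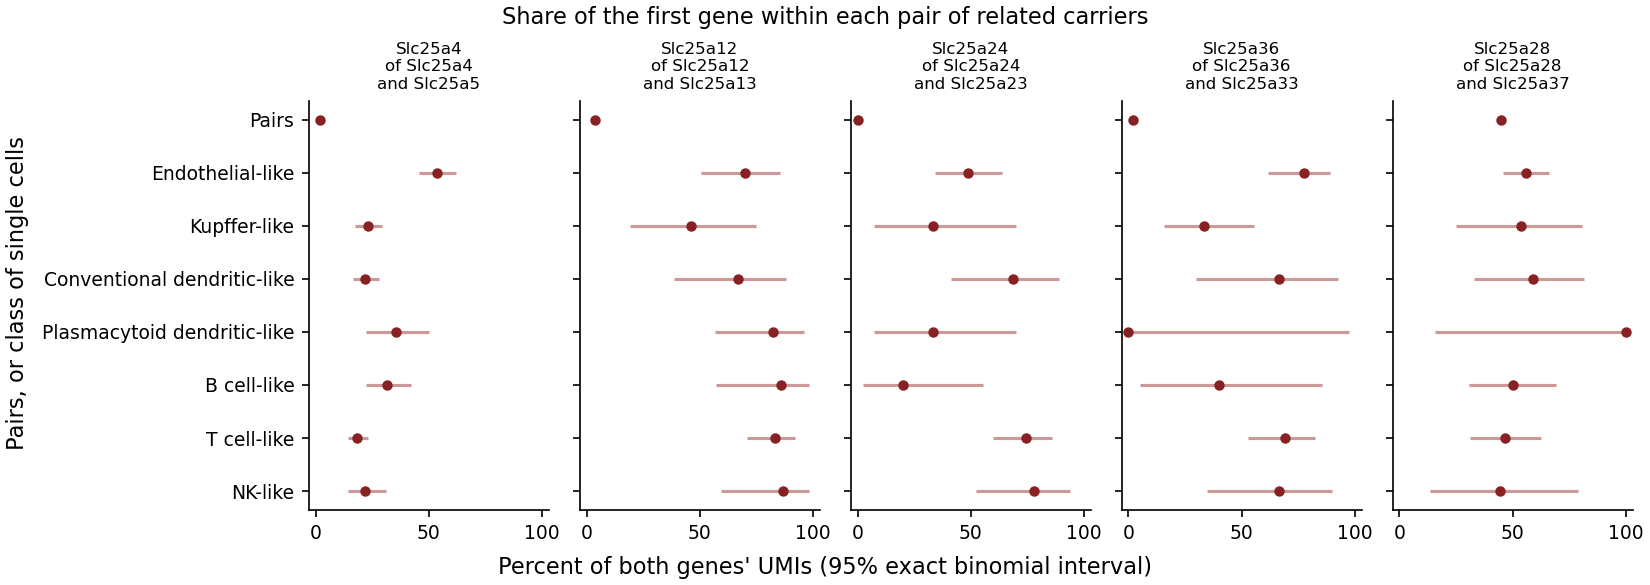
Horizontal axis, percent of the UMIs of 2 related carriers that belong to the first, with exact binomial 95% intervals; vertical axis, pairs and 7 classes of single cells. In the first 4 panels the pairs sit between 0.286 and 3.79% while endothelial-like cells sit between 48.98 and 77.5%; in the mitoferrin panel both are near the middle.

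Between the classes, the ADP/ATP carrier Slc25a5 was the member with the clearest extremes. It stood at 123 (interval 96.3 to 154, 73 UMIs) UPM in endothelial-like cells and at 683 (interval 585 to 794, 172 UMIs) in conventional dendritic-like cells. Kupffer-like (432), NK-like (445), T cell-like (406), plasmacytoid dendritic-like (314) and B cell-like cells (272) lay between, and neighbours in that order overlapped in interval. By the measure used here, it was the 1 member of 23 whose lowest class lay below, and whose highest class lay above, the interval of every other large class. The wells form 2 runs of numbers with 1526 and 1166 kept cells. In these Slc25a5 read 148 and 74.4 in endothelial-like, 421 and 353 in T cell-like and 566 and 801 in conventional dendritic-like cells. Wider ratios between classes were found on few UMIs, such as 4.18 in B cell-like and 42.1 in Kupffer-like cells for Slc25a44. Slc25a4 ran from 91.8 (interval 70.4 to 118) in T cell-like to 191 (interval 141 to 253) in conventional dendritic-like cells, and in T cell-like cells the runs read 63.2 and 189.

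Of the 7 large classes, endothelial-like cells had the highest values of both mitoferrins. Slc25a28 reached 94.2 (interval 71.2 to 122, 56 UMIs) UPM there, then 58.5 in B cell-like, 39.7 in conventional dendritic-like and 29.6 in T cell-like cells, and 19.6 in Kupffer-like cells, the iron-recycling macrophages of the liver. Slc25a37 reached 74.1 (interval 53.8 to 99.4, 44 UMIs) in endothelial-like, 58.5 in B cell-like, 34.1 in T cell-like and 16.8 in Kupffer-like cells. The intervals of endothelial-like and B cell-like cells overlapped for both genes. In the 31 neutrophil-like cells Slc25a37 stood higher, at 349.8 (interval 114 to 816), on 5 UMIs. The 2 runs of well numbers read 650 and 123 there, on 4 UMIs and 1 UMI. In endothelial-like cells the 2 runs read 96.8 and 89.3 for Slc25a28 and 71.3 and 79.4 for Slc25a37. In B cell-like cells they read 79.7 and 13.1 for Slc25a28 and 73.6 and 26.3 for Slc25a37. For Slc25a37 the endothelial-like level was thus not the higher of the 2 in the first run. In T cell-like cells they read 26.8 and 39.2 and 42.1 and 6.53.

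The phosphate carrier Slc25a3 had the same lowest and highest class as Slc25a5, with 264 (interval 225 to 309, 157 UMIs) in endothelial-like and 632 (interval 537 to 738, 159 UMIs) in conventional dendritic-like cells. Its 2 runs read 252 and 288 in endothelial-like and 725 and 539 in conventional dendritic-like cells. Slc25a45 was highest in Kupffer-like cells, 67.3 (interval 43.1 to 100.2, 24 UMIs), and lowest in endothelial-like cells, 15.1 (interval 6.93 to 28.8, 9 UMIs). Plasmacytoid dendritic-like cells were about as high for Slc25a45, at 66.5 (interval 26.7 to 137, 7 UMIs). The runs of Slc25a45 in Kupffer-like cells read 49.975 and 95.3, on 11 and 13 UMIs. The peroxisomal Slc25a17 was also highest in Kupffer-like and lowest in endothelial-like cells, 64.5 (interval 40.9 to 96.8, 23 UMIs) and 23.6 (interval 12.9 to 39.5, 14 UMIs). Its runs in Kupffer-like cells read 81.8 and 36.7, on 18 and 5 UMIs. Conventional dendritic-like cells were about as low as endothelial-like ones, with runs of 23.9 and 23.8 on 3 UMIs each. Slc25a12 ran from 16.8 (interval 6.18 to 36.6, 6 UMIs) in Kupffer-like to 133 (interval 72.7 to 223, 14 UMIs) in plasmacytoid dendritic-like cells, and Slc25a24 from 8.36 (interval 1.01 to 30.2, 2 UMIs) in B cell-like to 78.9 (interval 43.2 to 132, 14 UMIs) in NK-like cells. Kupffer-like cells were about as low for Slc25a24, with 3 UMIs of 356526 gene UMIs against 2 of 239264 in B cell-like cells. For 12 of the 23 members the intervals of the lowest and the highest of the 7 classes did not overlap (52.2%), and for the other 11 they did. Among all 7785 genes at that minimum 67.8% had such extremes, a share that includes the genes used to cluster the cells. Only the 2 extremes were compared, so the 11 can still differ between classes with more UMIs. Slc25a11, 1 of them, read 120 (interval 95.3 to 149, 81 UMIs) in T cell-like and 62.3 (interval 43.8 to 85.8, 37 UMIs) in endothelial-like cells.

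How much of a member's level in the pairs the endothelial partner could supply was set from its level in endothelial-like cells. Endothelial RNA was taken as 2.37% of pair UMIs, the median over the endothelial markers of pair level over endothelial-like level (quartiles 2.17 and 2.73%). For 17 of the 23 members this gave under 5% of the pair level, among them Slc25a47 (0.363%), Slc25a23 (0.354%), Slc25a5 (0.851%) and Slc25a3 (1.88%). Slc25a37 (6.35%), Slc25a12 (7.65%) and Slc25a28 (9.99%) lay between 5 and 10%. Slc25a4 reached 49.2%, Slc25a36 92.8% and Slc25a24 119%, the last of these above 100% and so beyond what the estimate allows. Slc25a36 and Slc25a24 had 76 and 46 UMIs in the pairs and were among the 23 through their UMIs in single cells. The same share was not computed over all genes, so the counts describe the 23 only. Hepatocyte RNA in the endothelial-like wells (markers at 9.29% of the pair level) enters these shares too. Of the members past the zonal fold, Slc25a37 had a share of 6.35% and Slc25a45 one of 2.08%, while Slc25a10, Slc25a21 and Slc25a42 had under 50 UMIs in single cells.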

How the data were processed

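Transcripts were measured in hepatocyte and CD31+ cell pairs and in single non-parenchymal cells, sorted into wells. Both deposited tables are raw counts: each value is the number of UMIs that 1 gene had in 1 well, and the authors applied no scaling. The submitters' processing notes name bcl2fastq 2.15.0.4 for base calls, and mm9 as genome build. Which aligner and annotation were used is not given in the sources used here. Members, lists and the landmarks were chosen with earlier results of these data known.

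Spike-in rows were left out (0.715% of UMIs in pairs, 52.8% in single cells), as were 68 rows of the single-cell table whose symbols repeat another row in different case. Pairs needed 1000 UMIs and 20 landmark UMIs, and all 4621 passed (2423 to 49311 UMIs). The score set the UMIs of 13 pericentral landmarks, such as Glul and Cyp2e1, against those of 12 periportal ones, such as Cyp2f2 and Alb, each divided by its mean over pairs. Zones were above a score of 0.608 and up to 0.301, and 1023 pairs lay within 0.05 of a limit. Levels were read from summed UMIs, with 95% exact intervals. Without a map from wells to mice no test was made, and a fold of 1.5 on at least 100 UMIs stood in as a rule of size.

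Single cells with at least 300 UMIs were clustered with scanpy 1.11.5 (2000 variable genes, 30 components, 15 neighbours, Leiden resolution 1) and named from markers. No doublet caller was run. Ratios and scores were tested on simulated data. Full values were given for the members with the 8 largest and 8 smallest ratios, the 8 of highest level and any middle peak of 1.25-fold, and the 2 extreme genes in each direction of a partner list. One member enters the counts and medians but is otherwise not reported here. Promoters came from RefSeq (GRCm38.p6), and no coordinate of the files was used.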

Additional observations from a re-analysis of the deposited data

How the results depend on the processing

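Each table is 1 sample, so counting intervals leave out the spread between mice, and under 50 UMIs no order of classes could be read. Alternatives were planned except the score without Alb and the omission of the 2 smallest blocks, chosen after seeing the data; those 2 left the number of members past the fold at 6. With each pair thinned to 2000 UMIs 23 members kept 100 UMIs, 3 passed toward the pericentral zone (all genes 9.30%), their median log2 ratio was 0.34 and 11 were highest in layer 1. A lower limit, at a log2 ratio of 0.32, gave 12 pericentral and 2 periportal members (all genes 22.9% and 7.96%), a fold of 2 gave 1 pericentral and 0 periportal (2.51% and 1.17%), and no UMI minimum gave 8 pericentral and 2 periportal of 41 (19.9% and 17.2%). The members' median log2 ratio was 0.069 when the all-gene median was set to 0, a shift of 0.12, and 0.063 without the 10 genes of highest level. Leaving out each block in turn, 6 members passed every time and the median ran from 0.18 to 0.23. The median share of a member's pair level from endothelial RNA, 1.83%, was 1.68% and 2.11% at the marker quartiles, which differ by construction. Over 11 settings that changed zones, score, scaling, depth or blocks, Slc25a37 and Slc25a45 passed the fold in all, Slc25a10 in 10 and Slc25a42 in 6. Slc25a21 passed in the 10 where it kept 100 UMIs, and was under that minimum in the thinned pairs. Of 32 members 24 kept the sign of their ratio in all 11, and no member past the fold reversed. Of 483 recomputed class levels 11 left their interval. No paired analysis was possible because the wells carry neither a mouse nor a replicate number.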

Other observations

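Family members that carry other names were not counted among the members. Ucp2, an uncoupling protein homologue known from immune cells, stood at 1231 UMIs per 1000000 gene UMIs in Kupffer-like cells, 1212 in conventional dendritic-like, 749.9 in NK-like, 736 in T cell-like and 269 in endothelial-like cells. In the pairs it stood at 5.91, so that the Kupffer-like level was 208-fold higher. It had 157 pericentral and 68 periportal UMIs (log2 ratio 1.14, interval 0.72 to 1.57), the 1 gene of 4 measured under other names past a fold of 1.5. Endothelial RNA at the share used above would account for 108% of its pair level. The 9 T cell markers, of which 6 had a UMI in the pairs, summed to 50 pericentral and 18 periportal UMIs, while Kupffer and endothelial markers were lower in the pericentral zone. Pericentral and periportal UMIs were 142 and 151 for conventional dendritic, 1 and 3 for NK and 5 and 4 for B cell markers. Plasmacytoid dendritic markers stood at 199 UPM in both zones. The part of these cells in the Ucp2 ratio was not tested.

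Mtch1, an outer membrane relative of the carriers, stood at 261 (interval 221 to 305) in endothelial-like and 276 (185 to 396) in plasmacytoid dendritic-like cells, from 28.2 in NK-like to 135 in conventional dendritic-like cells in the other 5 large classes, and at 52.7 in pairs. Its relative Mtch2 had 109 in endothelial-like cells and 204 in pairs. Between zones Mtch1 (0.08) and Mtch2 (0.05) were nearly even, and Mcart1 had a log2 ratio of -0.39.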
